A study of Mus musculus with 8 samples.

Results

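The 35 genes described here act in the G2 phase and in mitosis, the steps in which a cell that has copied its DNA divides, and leave aside the kinesin motors apart from Cenpe. They were chosen by name, as the rows of the deposited table of 18561 genes that carry 1 of 35 gene symbols, and all 35 were in the table. Expression was measured in 8 libraries of mouse enteric neural crest cells, the precursors of gut neurons and glia, from gastrointestinal tracts at embryonic day 14.5. Of these, 5 were labelled Emb knockdown and 3 WT. Both groups were sorted by flow cytometry with antibodies to CD271 and CD57 into tubes of about 200 cells, and read after Smart-seq2 amplification. How the knockdown was made, the strain, and whether embryos were pooled or each tube came from its own embryo were not given, so every p-value rests on the spread between tubes, part of which may be technical.

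Entry into mitosis is driven by the kinase Cdk1 bound to A- and B-type cyclins. The kinases Plk1, Aurka and Aurkb then shape the spindle. Kinetochores built on the centromere attach chromosomes to microtubules, and the spindle assembly checkpoint holds the anaphase-promoting complex, a ubiquitin ligase, until all are attached. Many of these genes are transcribed late in the cycle through promoters that the MuvB complex binds with B-Myb and FoxM1. In the embryonic gut, dividing enteric neural crest cells supply the cells that populate the wall, but any dividing cell type expresses this programme.

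The libraries held 20116607 to 26959265 counts, with 15069 to 17033 genes at 1 count or more. Emb, the gene named in the labels, was at 353, 349, 37.2, 21.4 and 21.7 CPM (counts scaled to a common, composition-corrected library size) in knockdown 1 to 5 and at 16.9, 17.7 and 15.9 CPM in WT 1 to 3. It was thus above WT in each library labelled knockdown, and directions below compare libraries by label only. In knockdown 1 and 2, 15 leukocyte markers summed to 30892 and 26147 CPM, against 1504 to 2732 CPM in knockdown 3 to 5 and 453 to 720 CPM in WT. There, 12 markers of enteric neural crest progenitors summed to 221 and 168 CPM, against 1052 to 1179 CPM in knockdown 3 to 5 and 3157 to 3167 CPM in WT, and Sox10, Tlx2 and Foxd3 were at 0 in knockdown 2. Most of the sums in knockdown 1 and 2 came from Ednrb alone, at 176 and 159 CPM. Each comparison is therefore given with all 8 libraries and with the 6 that remain without knockdown 1 and 2. In bulk RNA, fewer cells of a type and less RNA per cell cannot be told apart.

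The summed level of the 35 genes overlapped between the groups. It was 4535, 5869, 4618, 4893 and 4034 CPM in knockdown 1 to 5 and 4034, 4632 and 4435 CPM in WT 1 to 3. Knockdown 2 was highest. As a share of all counts, which uses no composition scaling, the order differed. The genes took 0.344%, 0.466%, 0.494%, 0.503% and 0.435% of the counts in knockdown 1 to 5 and 0.437%, 0.533% and 0.497% in WT, so that WT 2 was highest and knockdown 1 lowest. The composition factors were 0.758 and 0.794 in knockdown 1 and 2 and 1.03 to 1.15 in the other 6.

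Single genes differed in opposite directions. With 6 libraries, the log2 fold changes of the 35 genes, libraries labelled knockdown minus WT, ran from -1.10 to 1.14 around a median of 0.05, with 18 above 0 and 17 below. The median of all 15115 genes tested was 0.02. In edgeR's quasi-likelihood test with Benjamini-Hochberg adjustment over all genes, 5 members rose, namely Cks2, Cenpe, Cenpf, Ube2c and Birc5, beside 11.1% of all genes. Plk1, Bub1b and Bub3, 3 members, fell, beside 9.37% of all genes. The members' shares lay near these background shares in both directions. All 35 passed the filter on low counts in both comparisons.

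**Figure D1:**
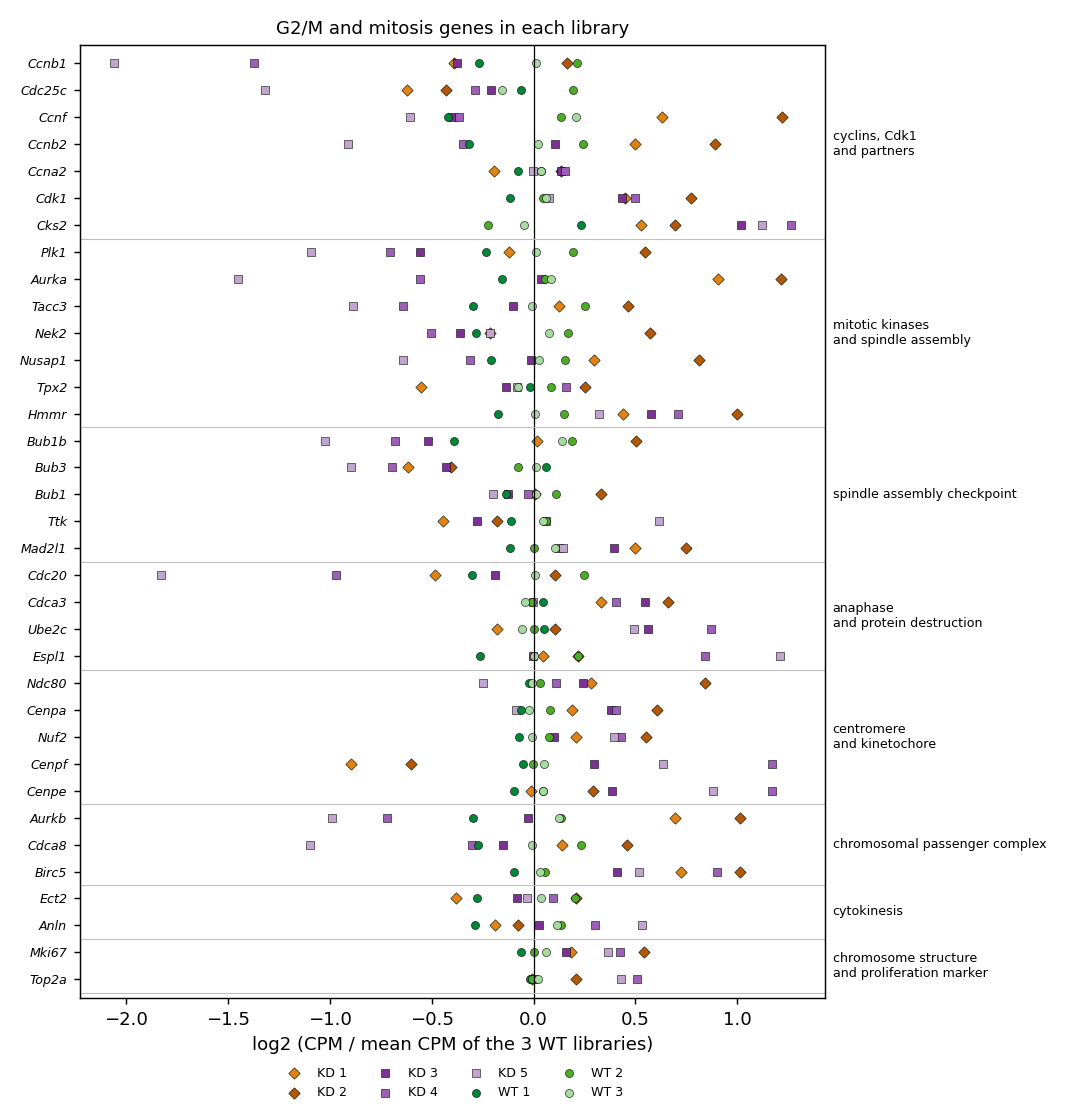
Level of each of the 35 genes in each library as log2 of its CPM over the mean CPM of the 3 WT libraries, grouped by role; each point is 1 library, with diamonds for knockdown 1 and 2 (KD), squares for knockdown 3 to 5 and circles for WT. Knockdown 5 was the lowest library for 16 genes, many of them kinase, cyclin and checkpoint genes, a count not made over all genes. Cks2, Cenpe and Birc5 in knockdown 3 to 5 lay to the right of all WT libraries.

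Promoter sequence is a feature that these genes share and that the choice of members did not use. MuvB binds the cell cycle genes homology region (CHR), searched here as TTTGAA with its variant TTTAAA, and the transcription factor NF-Y binds the letters CCAAT. Both strands were searched in 300 bases, from 250 before to 50 after each start in the RefSeq promoter table of GRCm38.p6, which held 33 promoters of 31 members. TTTAAA reads the same on both strands, and a CCAAT match can share an end letter with either CHR form. TTTGAA was present in 69.7% of the members' promoters and in 17.9% of all 32851. TTTAAA was present in 24.2% and 13.2%, and CCAAT in 78.8% and 37.4%. A CHR form together with CCAAT was found in 69.7% of the members' promoters and in 10.7% of all.

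The 120 bases before the start are shown for a pair of genes that rose, Cks2 and Ube2c, for Plk1, which fell, and for Cdk1 and its partner Ccnb1, to set the letters beside the direction of change. They are written 5′ to 3′ on the strand of the gene, with matches in capitals; TTCAAA and ATTGG are TTTGAA and CCAAT read on the other strand.
Cks2: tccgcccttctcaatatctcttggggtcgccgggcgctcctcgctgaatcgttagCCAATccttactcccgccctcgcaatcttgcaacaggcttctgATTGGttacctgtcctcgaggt
Ube2c: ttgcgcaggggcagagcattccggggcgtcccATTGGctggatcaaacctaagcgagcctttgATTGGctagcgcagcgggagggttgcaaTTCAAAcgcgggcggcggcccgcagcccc
Plk1: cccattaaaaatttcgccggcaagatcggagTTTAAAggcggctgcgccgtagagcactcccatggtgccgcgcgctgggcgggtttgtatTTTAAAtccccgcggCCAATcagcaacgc
Ccnb1: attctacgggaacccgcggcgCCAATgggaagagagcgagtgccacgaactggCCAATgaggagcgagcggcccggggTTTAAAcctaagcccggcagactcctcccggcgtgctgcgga
Cdk1: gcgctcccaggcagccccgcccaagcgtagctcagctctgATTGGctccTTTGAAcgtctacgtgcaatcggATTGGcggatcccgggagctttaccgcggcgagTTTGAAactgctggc
The windows are chr13:51645112-51645231 (plus strand), chr2:164769809-164769928 (plus), chr7:122159315-122159434 (plus), chr13:100786487-100786606 (minus) and chr10:69352913-69353032 (minus), in that order, each ending at the base before the annotated gene. In Ube2c a CHR match begins 29 bases before the start, behind CCAAT matches at 88 and 57. Plk1 has the variant at 89 and 29, and Ccnb1 has it at 42 behind CCAAT matches at 99 and 67. Cdk1 has the CHR at 71 and 15. The Cks2 window has CCAAT matches at 65 and 22, and neither CHR form was found in its 300 bases. In the full 300 bases, TTTGAA was found in 2 of the 5 genes that rose, Cenpf and Ube2c, with TTTAAA alone in Birc5 and Cenpe, and CCAAT in 4 of the 5. All 3 genes that fell had TTTGAA and CCAAT. Of the 23 members with a promoter entry that did not pass, 16 had TTTGAA, 17 had either CHR form and 17 had CCAAT. These counts are too small to compare. A match is a description of letters and not evidence of binding.

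Among the cyclins, Cdk1 and its partners, 1 of 7 rose with 6 libraries and the other 6 did not pass. Cks2, a small subunit that binds Cdk1 and helps it reach its substrates (gene 66197, chromosome 13, 51645232 to 51650662), had the highest log2 fold change of the 35 in edgeR's fit of 6 libraries. It was at 147, 166, 207, 246 and 223 CPM in knockdown 1 to 5 and at 121, 87.7 and 99.1 CPM in WT 1 to 3. Every library labelled knockdown was above every WT library, and knockdown 3 to 5 were above knockdown 1 and 2. With library-size scaling alone the groups overlapped, though knockdown 3 to 5 stayed above WT. The mean was 226 ± 19.6 CPM in knockdown 3 to 5 and 102 ± 16.7 CPM in WT (SD, n = 3 each), a log2 fold change of 1.14 ± 0.18 (SE), and edgeR's adjusted p was 0.00928. With 8 libraries the log2 fold change was 0.95 ± 0.24 (SE; edgeR adjusted p = 0.141).

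Ccnb1, the B-type cyclin that activates Cdk1 at mitotic entry, had the lowest log2 fold change in that fit, -1.10 ± 0.38 (SE), which did not pass (edgeR adjusted p = 0.069, 6 libraries). It was at 196, 288, 198, 99.4 and 61.6 CPM in knockdown 1 to 5 and at 214, 298 and 259 CPM in WT. Knockdown 3 to 5 were below every WT library but differed among themselves 3.22-fold, the widest spread of any member there, and knockdown 2 lay within the WT range. Cdk1 itself was at 192, 239, 189.5, 198 and 148 CPM in knockdown 1 to 5 and at 129, 145 and 146 CPM in WT. Every library labelled knockdown was higher, knockdown 5 by little, but with library-size scaling alone the groups overlapped. At a log2 fold change of 0.35 ± 0.17 (SE) Cdk1 missed the threshold (edgeR adjusted p = 0.174). Ccna2, cyclin A2, was at 165, 207, 208, 210.1 and 188 CPM in knockdown 1 to 5 and at 179, 194 and 194 CPM in WT. The groups overlapped, with a log2 fold change of 0.10 ± 0.15 (SE; edgeR adjusted p = 0.662).

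The ratio of Ccnb1 to Ccna2, a pair chosen after their values were seen, was 1.19, 1.39, 0.955, 0.473 and 0.327 in knockdown 1 to 5 and 1.19, 1.54 and 1.34 in WT, in CPM. A ratio of CPM values within a library is free of the scaling but not of gene length. Knockdown 3 to 5 were below every WT library, knockdown 4 and 5 most of all, and knockdown 1 was just below the lowest WT library. The other cyclin partners did not pass. Ccnb2, the other B-type cyclin, had a log2 fold change of -0.32 with 6 libraries, Ccnf, cyclin F, one of -0.45, and the phosphatase Cdc25c, which removes the inhibitory phosphates of Cdk1, one of -0.52.

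Of the 7 mitotic kinases and spindle assembly genes, 1 fell and 6 did not pass. Plk1, the polo-like kinase that acts from centrosome maturation to cytokinesis (gene 18817, chromosome 7, 122159435 to 122169884), was at 77.4, 69.9 and 53.5 CPM in knockdown 3 to 5. WT 1 to 3 were at 97.0, 130.3 and 115 CPM, so these groups did not overlap. Its mean of 67.0 ± 12.2 CPM against 114 ± 16.6 CPM (SD, n = 3 each) gave a log2 fold change of -0.77 ± 0.20 (SE; edgeR adjusted p = 0.0315). Knockdown 1 and 2, at 105 and 167 CPM, were not low, and with them the log2 fold change was -0.27 (edgeR adjusted p = 0.748). Hmmr, a spindle microtubule protein that also binds hyaluronan, was at 64.4, 94.8, 70.7, 77.6 and 59.4 CPM in knockdown 1 to 5 and at 42.1, 52.6 and 47.7 CPM in WT. All libraries labelled knockdown were above all WT libraries, but with library-size scaling alone only knockdown 3 to 5 stayed above WT as a group. At a log2 fold change of 0.55 ± 0.18 (SE) the gene missed the threshold (edgeR adjusted p = 0.0617, 6 libraries).

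The other 5 genes of that group had log2 fold changes from -0.53 to -0.01 with 6 libraries. Aurka, the centrosomal Aurora kinase and the lowest of them, was named after its values were seen. It was at 162 and 201 CPM in knockdown 1 and 2, at 88.7, 58.8 and 31.6 CPM in knockdown 3 to 5 and at 77.9, 90.2 and 91.8 CPM in WT. The libraries labelled knockdown thus lay on both sides of WT.

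In the spindle assembly checkpoint, 2 of 5 fell and 3 did not pass. Bub3, which brings checkpoint kinases to kinetochores (gene 12237, chromosome 7, 131560367 to 131571895), was at 244, 283, 279, 231 and 202 CPM in knockdown 1 to 5 and at 392, 355 and 378 CPM in WT 1 to 3. Every library labelled knockdown was below every WT library, knockdown 1 and 2 included. The mean was 237 ± 38.9 CPM in knockdown 3 to 5 and 375 ± 18.4 CPM in WT (SD, n = 3 each), a log2 fold change of -0.66 ± 0.18 (SE; edgeR adjusted p = 0.0353). With 8 libraries it was -0.60 ± 0.18 (SE; edgeR adjusted p = 0.163).

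Bub1b encodes BubR1, the checkpoint protein that inhibits Cdc20 (gene 12236, chromosome 2, 118598202 to 118641592). It was at 78.5, 70.3 and 55.3 CPM in knockdown 3 to 5 and at 85.8, 128 and 124 CPM in WT, groups that did not overlap though knockdown 3 and WT 1 lay close. The log2 fold change was -0.72 ± 0.22 (SE; edgeR adjusted p = 0.0461). Knockdown 1 and 2, at 114 and 159.8 CPM, were not low. The remaining checkpoint genes, the kinases Ttk and Bub1 and the Cdc20 inhibitor Mad2l1, had log2 fold changes from -0.11 to 0.23 with 6 libraries.

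Among the 4 genes of anaphase and protein destruction, 1 rose and 3 did not pass. Ube2c, the ubiquitin-conjugating enzyme of the anaphase-promoting complex (gene 68612, chromosome 2, 164769929 to 164772902), was at 213, 259, 356, 441 and 339.9 CPM in knockdown 1 to 5 and at 250.1, 242 and 232 CPM in WT. Knockdown 3 to 5 were above every WT library, and knockdown 1 was below them all. The mean of 379 ± 54.5 CPM against 241 ± 9.10 CPM (SD, n = 3 each) gave a log2 fold change of 0.65 ± 0.17 (SE; edgeR adjusted p = 0.032). Espl1, separase, the protease that cuts cohesin, was at 22.4, 25.3, 21.7, 39.0 and 50.2 CPM in knockdown 1 to 5 and at 18.1, 25.3 and 21.8 CPM in WT. Knockdown 4 and 5 were high and knockdown 3 was not, and at a log2 fold change of 0.77 ± 0.31 (SE) the gene missed the threshold (edgeR adjusted p = 0.104). Cdc20, the activator of the complex in early mitosis, named after its values were seen, was at 165, 95.8 and 52.8 CPM in knockdown 3 to 5 and at 152, 223 and 189 CPM in WT (log2 fold change -0.84 ± 0.36 (SE), edgeR adjusted p = 0.127).

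All 5 genes of the centromere and kinetochore had log2 fold changes above 0 in both comparisons, a count not made over all genes. With 6 libraries 2 rose and 3 did not pass. Cenpe is a kinetochore motor of the kinesin family that aligns chromosomes (gene 229841, chromosome 3, 135212563 to 135273540). It was at 102, 126, 134, 231 and 189 CPM in knockdown 1 to 5 and at 96.0, 106 and 106 CPM in WT. Knockdown 3 to 5 were above every WT library and knockdown 1 lay within the WT range, with a log2 fold change of 0.85 ± 0.21 (SE; edgeR adjusted p = 0.0286, 6 libraries).

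Cenpf, a large kinetochore protein that accumulates in G2 (gene 108000, chromosome 1, 189640606 to 189688107), was at 66.6 and 81.6 CPM in knockdown 1 and 2. Knockdown 3 to 5 were at 152, 279 and 192 CPM and WT 1 to 3 at 119.5, 124 and 128 CPM. The libraries labelled knockdown thus fell on both sides of WT, the first pair below and the other 3 above. The log2 fold change was 0.75 ± 0.23 (SE; edgeR adjusted p = 0.0486) with 6 libraries and 0.32 ± 0.46 (SE; edgeR adjusted p = 0.769) with 8. The log2 fold changes of Nuf2 and Ndc80, which form the microtubule-binding complex of the outer kinetochore, and of Cenpa, the centromeric histone, were 0.05 to 0.32 with 6 libraries and did not pass.

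In the chromosomal passenger complex, which corrects faulty attachments, the 3 members did not share a direction. Birc5, survivin (gene 11799, chromosome 11, 117849237 to 117855743), was at 251, 307, 202, 283 and 218 CPM in knockdown 1 to 5 and at 142, 158 and 155 CPM in WT. Every library labelled knockdown was above every WT library, also with library-size scaling alone. The mean of 234 ± 43.3 CPM in knockdown 3 to 5 against 152 ± 8.54 CPM in WT (SD, n = 3 each) gave a log2 fold change of 0.63 ± 0.18 (SE; edgeR adjusted p = 0.042). With library-size scaling alone Birc5 missed the threshold (edgeR adjusted p = 0.0589, 6 libraries). Aurkb, its kinase, was at 193, 240.3, 117, 72.1 and 59.9 CPM in knockdown 1 to 5 and at 96.7, 130.5 and 129.6 CPM in WT. It was high in knockdown 1 and 2 and low in knockdown 4 and 5, and did not pass (log2 fold change -0.52 ± 0.26 (SE), edgeR adjusted p = 0.183, 6 libraries). Cdca8, borealin, had a log2 fold change of -0.46 there.

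Neither cytokinesis gene passed. Anln, anillin, the scaffold of the contractile ring, was at 42.1, 45.4, 48.8, 59.1 and 69.3 CPM in knockdown 1 to 5 and at 39.3, 52.5 and 51.9 CPM in WT. The groups overlapped, with knockdown 4 and 5 highest, and the log2 fold change was 0.30 ± 0.20 (SE; edgeR adjusted p = 0.302). Ect2, the activator of RhoA at the division plane, was nearly level with WT (edgeR adjusted p = 0.996).

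The usual proliferation markers did not pass either. Mki67, which coats mitotic chromosomes and is absent from resting cells, was at 281, 359.8, 276, 332 and 319 CPM in knockdown 1 to 5 and at 237, 247 and 258 CPM in WT. Every library labelled knockdown was above every WT library in composition-corrected CPM. With library-size scaling alone the groups overlapped, though knockdown 3 to 5 stayed above WT. At a log2 fold change of 0.32 ± 0.16 (SE) Mki67 missed the threshold (edgeR adjusted p = 0.173, 6 libraries). Top2a, the topoisomerase that untangles sister chromatids, was at 343, 399, 344, 490.2 and 465 CPM in knockdown 1 to 5 and at 341, 344 and 351 CPM in WT. In CPM, knockdown 2, 4 and 5 were above WT and knockdown 1 and 3 were at its level (log2 fold change 0.33 ± 0.19 (SE), edgeR adjusted p = 0.226). Scaled to gene length and library size (FPKM), knockdown 1 and 2, at 51.88 and 63.34, were below WT at 73.95 to 79.52.

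**Figure D2:**
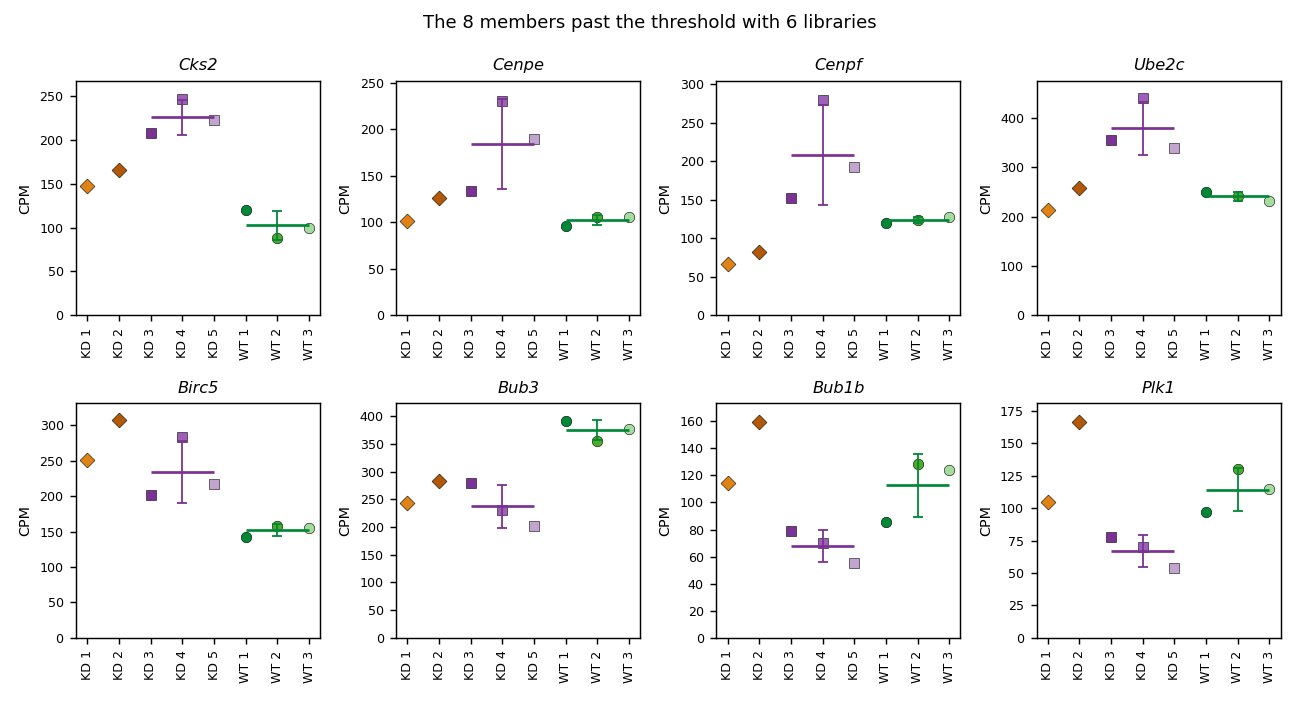
CPM of the 8 genes past the adjusted p threshold of 0.05 with 6 libraries, 1 point per library, with lines and bars for the mean ± SD of knockdown 3 to 5 and of WT (n = 3 each). Cks2, Birc5 and Bub3 in knockdown 1 and 2 lay on the same side of WT as knockdown 3 to 5. Plk1 and Bub1b in knockdown 2, Ube2c in knockdown 1 and Cenpf in knockdown 1 and 2 lay on the other side.

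With all 8 libraries, none of the 35 genes passed in edgeR's quasi-likelihood test, higher or lower, and neither did any other gene, a background of 0% each way. The smallest adjusted p was 0.141 among the members and 0.117 among all 15411 genes. At an unadjusted p under 0.05, 4 members were higher, Birc5, Cdk1, Cks2 and Hmmr, beside 12.7% of all genes, and 1, Bub3, was lower, beside 5.9%. DESeq2 called 3 members higher and 1 lower, beside 10.5% and 3.91% of all genes, and limma voom with quality weights called 5 and 5, beside 12.5% and 11.5%. The median log2 fold change was 0.20 for the members, from -0.61 to 0.95, and 0.07 for all genes. Standard errors of the members had a median of 0.26 with 8 libraries and 0.19 with 6.

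Groups were also compared by overlap alone. With 8 libraries, 7 members were higher in every library labelled knockdown than in every WT library, namely Birc5, Cdk1, Cks2, Hmmr, Mad2l1, Mki67 and Nuf2, beside 10.8% of all genes. Bub3 and Cdc25c, 2 members, were lower in every one, beside 11.9%. When libraries were scaled by size alone, the higher count was 1, Birc5, beside 6.78% of all genes, and the lower count 3, with Ccnb1 added, beside 18.9%. The scaling thus moved the counts of members and of all genes in the same directions. With 6 libraries, 10 members were higher without overlap beside 20.4% of all genes, and 5 were lower, Bub1b, Bub3, Ccnb1, Cdc25c and Plk1, beside 23%. By size alone these were 7 and 5, beside 18.1% and 25.7% of all genes.

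**Figure D3:**
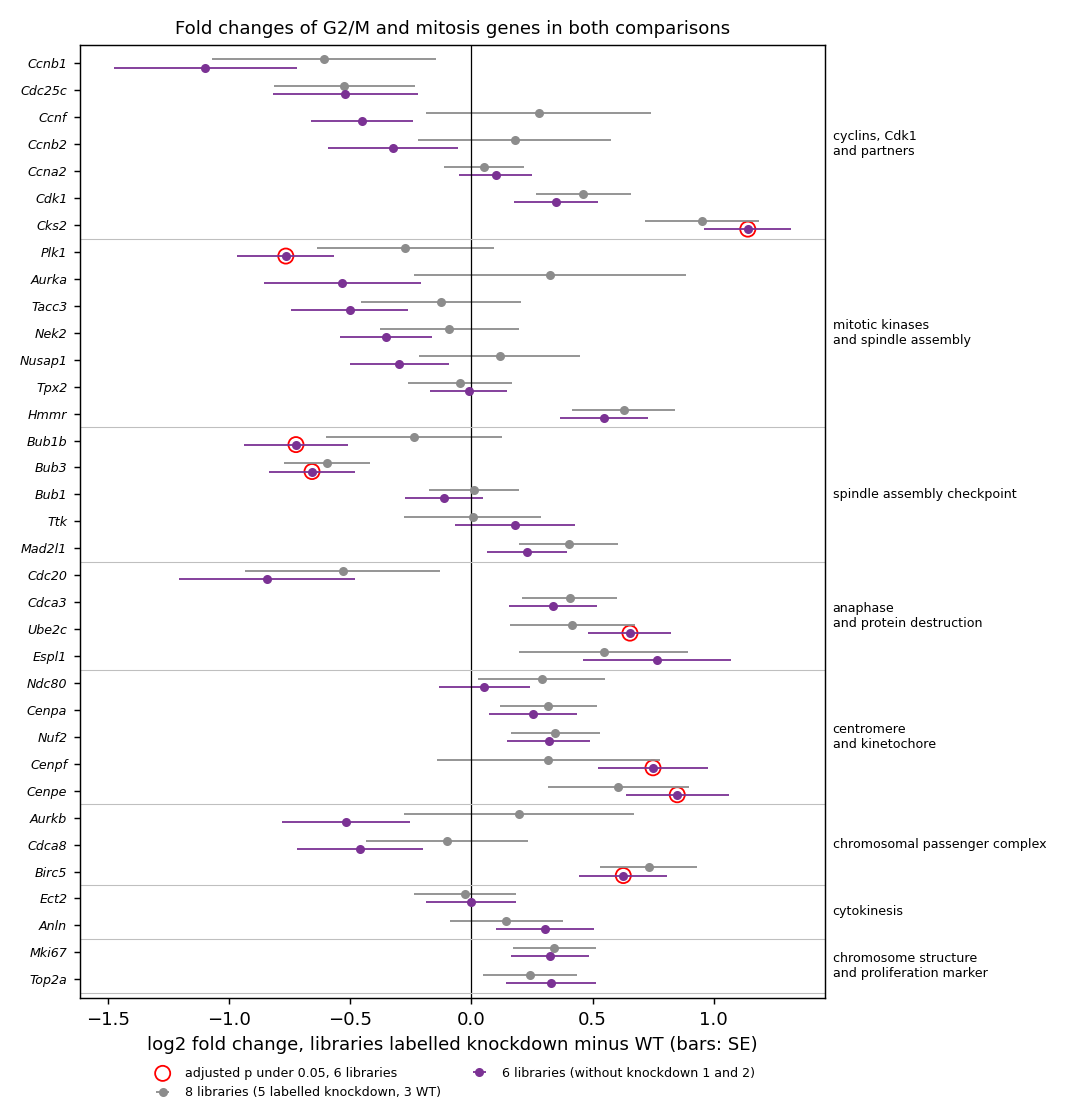
Log2 fold change with its SE for each of the 35 genes, libraries labelled knockdown minus WT, with 8 libraries in grey and 6 in purple; red rings mark an adjusted p under 0.05. Cks2, Birc5 and Bub3 had nearly the same value in both comparisons, whereas Plk1, Bub1b and Cenpf lay closer to 0 with 8 libraries.

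The calls with 6 libraries depended on single libraries. Without knockdown 4, WT 2 or WT 3, 0 members passed in either direction, where 0.673%, 1.45% and 1.07% of all genes rose and 0.492%, 1.25% and 0.828% fell. Without knockdown 5, 2 members rose and 0 fell, beside 5.83% and 4.91% of all genes. Without WT 1, 1 rose and 1 fell, beside 5.33% and 3.61%. Without knockdown 3, 7 rose and 8 fell, beside 19.2% and 19.6%. The members' counts thus moved together with the counts over all genes. Cks2 came closest to holding, with edgeR adjusted p-values of 0.0502, 0.0590 and 0.0564 without WT 2, WT 3 and knockdown 4. The direction of each of the 8 genes was the same in all 13 alternatives run with 6 libraries.

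The libraries labelled knockdown 3 to 5 differed more among themselves than the WT libraries did. The highest library stood above the lowest by a median of 1.42-fold over the 35 genes in knockdown 3 to 5 and 1.19-fold in WT. The spread was wider in knockdown 3 to 5 for 29 of 35 members, 82.9%, and for 78.2% of the 7551 genes tested that were at least as abundant as the lowest member, whose median folds were 1.5 and 1.21. Knockdown 5 was the lowest of the 3 for 21 members, knockdown 3 for 12 and knockdown 4 for 2. Knockdown 4 was the highest for 16, knockdown 3 for 15 and knockdown 5 for 4. These counts were not made over all genes, so they cannot be read as particular to the members. Cdc20, Ccnb1 and Aurka in knockdown 5 were at 0.32, 0.311 and 0.356 of their level in knockdown 3, whereas Espl1 and Ttk were at 2.32 and 1.86. These 5 genes were chosen after their values were seen.

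Levels of different genes were compared per length, as FPKM (fragments scaled to gene length and library size). In WT, Ube2c was the most abundant member at 384 ± 14.4 FPKM (SD, n = 3), followed by Cks2 at 245 ± 26.5, Bub3 at 228 ± 3.92 and Birc5 at 217 ± 20.4. Ube2c stood above the rest by more than its spread, Cks2, Bub3 and Birc5 did not differ from each other beyond theirs, and Espl1 was lowest at 3.77 ± 0.755 FPKM. The genes that rose included short and long transcripts. The lengths implied by counts and FPKM were 479 bases for Cks2, 716 for Ube2c and 779 for Birc5, but 7601 for Cenpe and 10772 for Cenpf, beside 1855 for Bub3, 2000 for Plk1 and 3455 for Bub1b. Across genes, Spearman's rho of log2 fold change with length was 0.212 over the 35 members and 0.126 over 15043 genes with 6 libraries, a description over genes that share libraries.

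Other genes of the pathway were taken from 6 lists of 113 genes, none of them members, and all were tested. With 6 libraries, 12 rose and 6 fell, beside 11.1% and 9.37% of all genes, so neither count exceeded the background. The median log2 fold change was 0.07. Counts of single lists stand beside the same background shares and rest on few genes. With 8 libraries 0 passed. The list of cohesin and condensin, the ring complexes that hold and compact chromosomes, also held regulators such as Pttg1 and Sgo2a. With 6 libraries 5 of its 20 genes were higher, these 2 among them, and none lower. Smc4, a condensin core subunit, had a log2 fold change of 1.22 ± 0.22 (SE), Pttg1, securin, the inhibitor of separase, 1.07 ± 0.22, and Smc2, the other condensin core subunit, 0.73 ± 0.17. In the anaphase-promoting complex and its activators, 2 of 17 rose and 4 fell. Cdc23, a scaffold subunit, had a log2 fold change of -1.08 ± 0.20 (SE), Fzr1, the activator of late mitosis and G1, -0.91 ± 0.19, and the small subunit Anapc13 0.97 ± 0.20.

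A list of 27 other kinetochore and centromere genes also held Incenp, and shared Sgo1 with the cohesin and condensin list. Of these 27, 17 had log2 fold changes above 0 with 6 libraries, a count not made over all genes. Cenpw and Cenph rose, with log2 fold changes of 1.07 and 1.04, and none fell. Of 21 other spindle and cytokinesis genes 3 rose and 1 fell. Aspm, a spindle pole protein, had a log2 fold change of 1.25 ± 0.27 (SE), Numa1, which anchors the spindle poles to the cell cortex, 1.23 ± 0.28, and the centrosome protein Cep192 0.84 ± 0.22. The gene that fell, named after its values were seen, was Racgap1, a partner of Ect2, at -0.66 ± 0.19. Of 14 regulators that control the transcription of late cell cycle genes, only Tfdp1, the dimer partner of E2F factors, passed, at -0.66 ± 0.18. Of the remaining regulators, Foxm1 was at 54.2 to 61.1 CPM in knockdown 3 to 5 and at 65.6 to 78.3 CPM in WT (log2 fold change -0.32, edgeR adjusted p = 0.186). Mybl2, B-Myb, was at 30.2 ± 3.99 and 42.0 ± 6.28 CPM (SD, n = 3 each; log2 fold change -0.48, edgeR adjusted p = 0.118). Neither passed, and both were named after their values were seen. None of 15 other entry and exit regulators passed.

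Cell type markers differed between the same groups. With 6 libraries, 12 of 15 leukocyte markers and 5 of 11 mesenchyme markers rose, while 10 of 12 progenitor, 6 of 14 neuron and 10 of 11 endothelial markers fell. The summed mesenchyme level was 6346 to 7168 CPM in knockdown 3 to 5 and 3422 to 4632 CPM in WT, and the summed neuron level 771 to 1374 CPM and 1991 to 2592 CPM. The endothelial sum was 124 to 250 CPM and 591 to 798 CPM. No gut epithelial marker of 8 passed, and of 8 erythroid markers 1 rose and 2 fell. Ptprc, the leukocyte antigen CD45, was at 64.9 to 75.5 CPM in knockdown 3 to 5, at 10.4 to 18.2 CPM in WT and at 595 and 470.5 CPM in knockdown 1 and 2. Sox10 was at 68.0 to 77.6 CPM in knockdown 3 to 5 and at 244 to 281 CPM in WT, and at 5.51 and 0 CPM in knockdown 1 and 2, where a count of 0 allows up to 0.141 CPM for counting error. The part of these markers in the differences of the mitosis genes was not tested. In composition-corrected CPM, knockdown 2 was the highest library for 22 of the 35 mitosis genes and knockdown 1 for 0. This count was not made over all genes. As a share of all counts, the 35 genes were highest in WT 2, at 0.533%, with knockdown 2 at 0.466%.

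**Figure D4:**
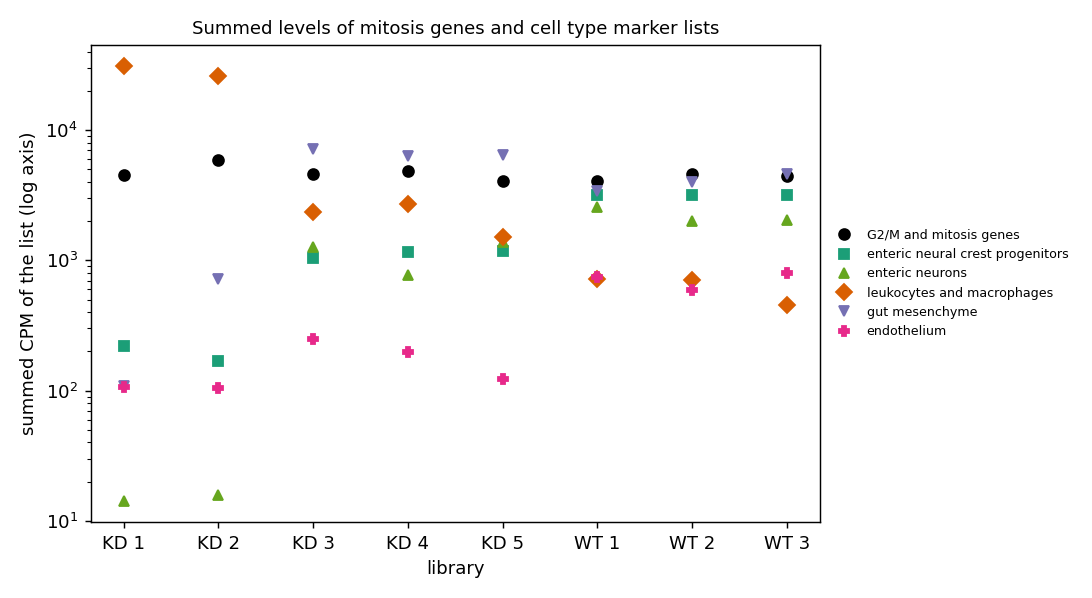
Summed CPM of the 35 mitosis genes (black) and of 5 lists of cell type markers (colours) in each library, on a log axis; each point is 1 library. The mitosis sum stayed between 4034 and 5869 CPM, whereas the leukocyte sum was 30892 and 26147 CPM in knockdown 1 and 2 and at most 2732 CPM elsewhere and the progenitor sum was highest in WT.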

How the data were processed

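The authors sequenced 8 Smart-seq2 libraries and deposited 1 table. The submitters' processing notes name HISAT, Bowtie2 and the build GRCm38.p6; the counting tool and annotation are not given in the sources used here. Per the file headers, the table holds expected counts, which are estimated read counts per gene without normalisation (17.6% to 19.8% of the values are not whole), FPKM and TPM as scaled by the authors, and normalised counts, a signal scaled by 1 factor per library. TPM, that signal and 8 group-mean columns were not used. Reads were counted without molecular identifiers and the kit does not mark strand, so amplified copies count as reads and antisense genes cannot be told apart.

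Counts were rounded, filtered with filterByExpr, scaled with TMM and tested in edgeR 4.0.16 (R 4.3.3) with its quasi-likelihood test, robust, two-sided, with a threshold of 0.05 on the Benjamini-Hochberg adjusted p over all genes tested. The comparison of 6 libraries was filtered and scaled anew; printed CPM use the TMM scaling of 8 libraries. The fits were also run on simulated counts in which only seeded genes differed between the groups. These counts lacked the cell type differences between the real libraries, so they cannot show how the fits handle them. Alternatives used DESeq2 1.42.0, limma 3.58.1 on counts or on log2(FPKM + 1) and log2(FPKM + 0.1), other scalings, no filter and each library left out. The members, lists, role groups and the choice to leave out knockdown 1 and 2 were made with earlier results of these data known. Values in every library are given for members past the threshold, for the 2 members of each role group (1 in a group of 2) with the smallest p, and for Mki67, Top2a, Cdk1, Ccnb1, Ccna2 and Plk1; other genes were named from the lists, up to 3 that passed per list. Promoters came from the RefSeq table of GRCm38.p6, in which 4 members had no entry and 2 had 2.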

Additional observations from a re-analysis of the deposited data

Results flagged for a closer look

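Nek2, a centrosomal kinase that parts the spindle poles, was at 71.4 CPM in the library labelled knockdown 2 while the other 4 under that label had 33.8 to 41.3 CPM. Its distance from the next library was large for the range of the 5 in CPM. By chance about 1 in 20 groups of this size shows such a gap, and 35 members were looked at. WT libraries were at 39.5 to 53.9 CPM. In FPKM, knockdown 2 was at 18.99, within the WT range of 14.33 to 20.96. The other libraries labelled knockdown were at 10.46 to 14.84 FPKM, so the gap was smaller for the range on that scale.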

How the results depend on the processing

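With 6 libraries, 5 members were higher and 3 lower. The count was 3 higher with library size without a composition factor (9.56% of all genes), 12 higher and 9 lower with limma voom (23.4% and 22.2%), and 2 higher with limma on log2(FPKM + 1) and on log2(FPKM + 0.1), where 8.1% and 8.14% of all genes were higher and 13.0% and 12.6% lower. Leaving out 1 library gave 0 to 7 higher and 0 to 8 lower. With 8 libraries, DESeq2 gave 3 higher and 1 lower and voom 5 and 5, against 0 each in all other fits, and the count of groups without overlap on the higher side was 1 by library size, an alternative chosen after seeing the data. Of the values of named genes with 6 libraries, 162 kept their direction and side of the threshold, 15 came to pass and 44 no longer passed; none turned. With 8 libraries 241 kept both, 13 came to pass and 18 turned, none of which had passed. These were, without a composition factor, Anln -0.072, Aurkb -0.15 and Ccna2 -0.18; with voom, Aurkb -0.53; with log2(FPKM + 1), Aurkb -0.25, Ccna2 -0.22, Cenpf -0.10 and Top2a -0.035; with log2(FPKM + 0.1), Anln -0.0046, Aurkb -0.26, Ccna2 -0.22, Cenpf -0.13 and Top2a -0.036. Leaving out 1 library, Aurkb ranged from -0.11 to 0.40 and Cenpf from -0.0061 to 0.51. The median of all genes moved from 0.07 to -0.17 without a composition factor and to -0.21 and -0.35 on the FPKM scales. The cause of these changes was not tested beyond that shift. Whether replicate numbers pair the libraries was not given. Deviations of same-numbered libraries correlated at -0.07, 0.13 and -0.03, and 2 of 6 libraries were closest to their own number. These values gave no sign of pairing but cannot exclude it, since knockdown 1 and 2 differed widely from the others in cell type markers. With a replicate block, 0 members passed with 8 libraries, the members' median was 0.17, and Anln was at -0.066, Bub1b at 0.027 and Cenpf at -0.40. No such fit was possible with 6 libraries, which share 1 number. Depth did not limit the members' counts, the lowest being far above 3 counts.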
